A study of Mus musculus with 18 samples.

Results

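Short-term haematopoietic stem cells (ST-HSC) were compared with long-term haematopoietic stem cells (LT-HSC) after 2 and 4 days of culture without induction of reprogramming (N). The comparison used 4 of the 18 RNA-seq libraries of the study: ST-HSC_2N, ST-HSC_4N, LT-HSC_2N and LT-HSC_4N. All were chosen by their titles. A gene was said to agree at both days where ST-HSC and LT-HSC differed at least 2-fold, on log2(FPKM + 1), in the same direction at day 2 and at day 4. FPKM counts sequenced fragments relative to transcript length and library size. The myeloid progenitor (MP) libraries of the same cultures, MP_2N and MP_4N, entered the test as 2 further libraries.

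All cells came from C57BL/6 all-iPS mice, which are grown entirely from induced pluripotent stem cells. Oct4, Sox2, Klf4 and c-Myc sit in the genome of these mice under doxycycline control, so N cultures, cultures with doxycycline (D) and uncultured cells share that genotype. By the study's design N cells were cultured for the same time with no doxycycline. The doxycycline field of the N libraries nevertheless reads yes, and the titles were followed. Sox2 was listed at 1.12 and 0 FPKM in ST-HSC_2N and ST-HSC_4N and at 1.5 and 0 FPKM in LT-HSC_2N and LT-HSC_4N, against 29.1 to 61.3 FPKM in the 4 D libraries of the same cell types. The other 3 factors did not set N apart from D in this way: Pou5f1, the gene of Oct4, was listed at 0 in all 4 N libraries and at 0 to 2.07 FPKM in D, Klf4 was at 0 to 1.33 FPKM in N and at 0.704 to 11.2 FPKM in D, and Myc was at 188 to 291 FPKM in N and at 47.6 to 189 FPKM in D. Each condition was 1 library of 25 hand-picked cells, reverse transcribed with a polyT primer and amplified by PCR, and the labels give neither the sorting gates nor the animals. There were no replicates, so p-values rest on how unequally the cell types differed on day 2 and on day 4.

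LT-HSC renew themselves and can supply all blood lineages for the life of an animal, while ST-HSC do so only for a limited time and lie closer to the multipotent and myeloid progenitors. Developing neutrophils make the serine proteases and peroxidase of the primary granules first and the proteins of the later granules afterwards. Part of the LT-HSC pool carries RNA that is otherwise typical of megakaryocytes, the cells that shed platelets.

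Read depth is unknown, because the values are FPKM. Total FPKM over all genes lay between 735422 and 749487 in the 4 libraries, and 10788 to 11118 genes reached FPKM 1. Across the 11684 genes tested, the ST-HSC and LT-HSC libraries correlated at 0.854 on day 2 and 0.849 on day 4 (Pearson, log2(FPKM + 1), across genes, which are not independent replicates). ST-HSC correlated with MP at 0.892 and 0.865, and LT-HSC with MP at 0.801 and 0.777. Because Cufflinks can fail to estimate a gene, a zero is reported as listed at 0, and no fold is given against it.

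Of the measured genes in the lists for other cell types, 22 of 32 lymphoid, 4 of 16 endothelial and 6 of 18 stromal genes were listed at 0 in all 4 libraries. Of all 36655 symbols, only 17955 were above 0 in any library of the study, so most symbols were at 0 in these 4. The endothelial and stromal shares at 0 were below that of all symbols. The share of all symbols at 0 in these 4 libraries was not counted, so the lymphoid share cannot be set against it. The lymphoid list summed to 72.1 and 221 FPKM in ST-HSC and to 33.7 and 31.4 FPKM in LT-HSC, with Ighm, the immunoglobulin mu heavy chain, its highest gene. The endothelial list summed to 480.4 and 318 FPKM in ST-HSC and to 749.7 and 714 FPKM in LT-HSC, with the secreted factor Egfl7 highest. The stromal list summed to 562 and 924 FPKM in ST-HSC and to 432 and 435 FPKM in LT-HSC, mostly Vim, the filament protein vimentin. The part of other cell types in the results was not tested. Among defining markers, Cd3e, Cd79a, Klrd1, Cdh5, Kdr and Dcn were listed at 0 in all 4 libraries, and Lck, a kinase of T cells, was at 14.2 and 8.48 FPKM in ST-HSC and at 2.82 and 14.2 FPKM in LT-HSC. Ptprc, the pan-leukocyte phosphatase CD45, was at 28.5 and 30.9 FPKM in ST-HSC and at 26 and 20.3 FPKM in LT-HSC. Libraries that stand apart touch the results below. LT-HSC_2N carried proteins of the later neutrophil granules: the 20 measured genes of that list summed to 216 and 152 FPKM in ST-HSC on days 2 and 4, and to 5731 and 74.7 FPKM in LT-HSC. The same list summed to 7604 and 1196 FPKM in MP. The uncultured library labelled LT-HSC_0 carried primary granule RNA at nearly the level of uncultured MP: that list summed to 4904 FPKM in uncultured ST-HSC, 66375 FPKM in uncultured MP and 50142 FPKM in LT-HSC_0. That goes against its label. The later granule list was also high there, at 11734 FPKM, against 202 FPKM in uncultured ST-HSC and 7567 FPKM in uncultured MP. The LT-HSC surface and signature list went with the label, at 3099.9 FPKM in LT-HSC_0, 2460 FPKM in uncultured ST-HSC and 483 FPKM in uncultured MP. The source of the granule RNA was not tested, and every comparison with uncultured LT-HSC below rests on this library.

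The primary neutrophil granule list, which includes the progenitor membrane protein Ms4a3, gave 5 of the calls higher in ST-HSC than in LT-HSC. Short-term progenitor genes gave 4 of them, and the LT-HSC list gave 3 of the lower calls. No gene of the later neutrophil granules was called, and on day 2 the median of that list was -4.25 on the log2 scale. With limma, 24 of 11684 genes (0.205%) were higher in ST-HSC and 6 (0.0514%) were lower at an adjusted p under 0.05, while 1427 genes had an unadjusted p under 0.05. The higher genes were led by Ms4a3, Mpo and Ctsg, with fitted log2 differences of 7.91, 7.7 and 7.63. The lower genes were Vwf, Fip1l1, Chad, Reep2, Pdzk1ip1 and Cd9. All 30 passed the 2-fold rule at both days, which had both entered the fit. The calls depended on each LT-HSC library: without LT-HSC_2N, and likewise without LT-HSC_4N, no gene passed (1256 and 1354 genes at an unadjusted p under 0.05), although all 30 kept their sign. The count was 10 without ST-HSC_2N, 9 without ST-HSC_4N, 6 without MP_2N and 24 without MP_4N. With limma's trend option off, whether robust was on or off, no gene passed either (1221 and 1256 genes at an unadjusted p under 0.05), and all 30 again kept their sign.

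By the rule of agreement, which carries no test, 437 of 11684 genes (3.74%) were at least 2-fold higher in ST-HSC at both days and 615 (5.26%) were at least 2-fold lower. At 4-fold the numbers were 119 and 179. The pairs of the 2 days share no library, so each day can be set against the other. Of the 1632 genes that were 2-fold higher in ST-HSC on day 2, 26.8% were also higher on day 4, where 14.7% of all genes tested were higher, and 12.6% were lower on day 4. Of the 1884 genes 2-fold lower on day 2, 32.6% were also lower on day 4, where 15.8% of all genes were lower, and 13.3% were higher. Across all genes the 2 differences correlated at 0.254. Most differences of 2-fold in 1 day's pair were therefore not shared by the other day's.

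Just inside the rule on the higher side stood Trpv2, with 14.7 and 30.6 FPKM in ST-HSC and 6.86 and 9.26 FPKM in LT-HSC. Mcts1, with 159 and 115 FPKM in ST-HSC and 79.6 and 56.3 FPKM in LT-HSC, stood just outside. On the lower side Mrgpre was just inside, with 3.7 and 1.09 FPKM in ST-HSC and 11.3 and 3.2 FPKM in LT-HSC. Abhd10 was just outside, with 14.3 and 19.2 FPKM in ST-HSC and 59.6 and 39.4 FPKM in LT-HSC. In 94 of the 437 higher genes (21.5%) both LT-HSC libraries were listed at 0, and in 94 of the 615 lower genes (15.3%) both ST-HSC libraries were. Over all genes tested these shares were 2.95% and 2.88%.

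**Figure D1:**
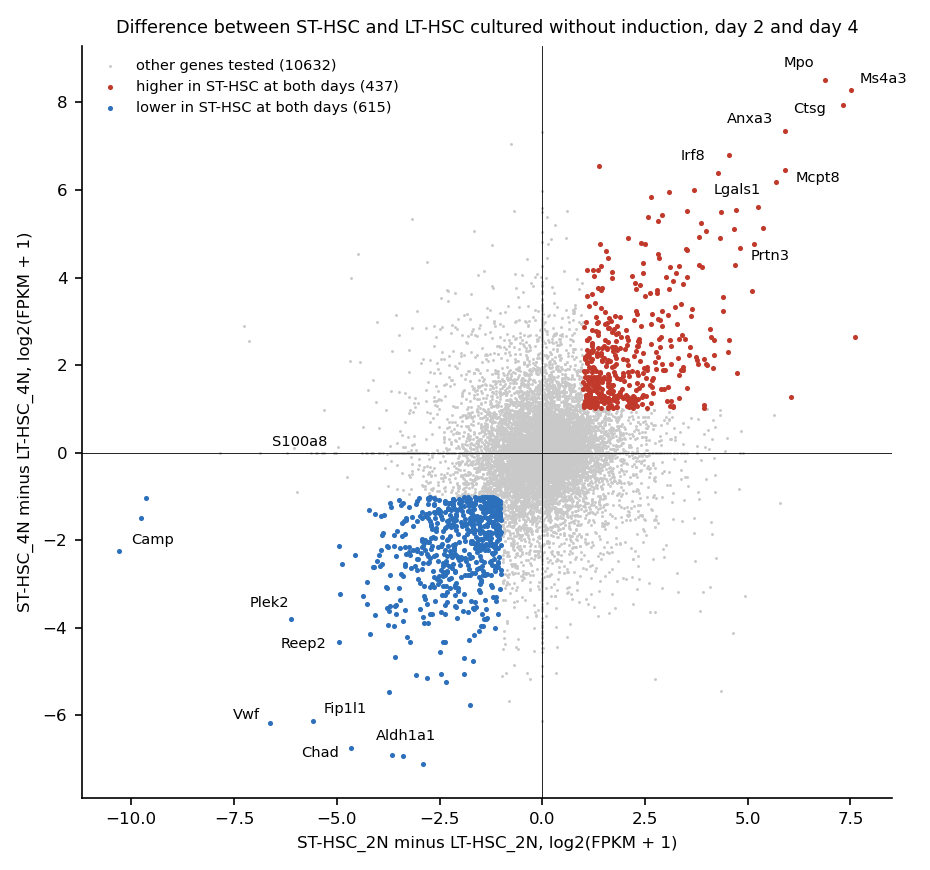
Difference between ST-HSC and LT-HSC on log2(FPKM + 1) on day 2 (horizontal axis) and day 4 (vertical axis) of N culture, 1 point per gene tested. The 437 genes 2-fold higher at both days are red, with Ms4a3, Mpo and Ctsg at the upper right, and the 615 genes 2-fold lower at both days are blue, with Vwf, Fip1l1 and Chad at the lower left. Camp, with 1266 FPKM in LT-HSC_2N, lies far to the left.

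The primary granule list, counting the progenitor membrane protein Ms4a3, gave more calls than any other list. Of 14 tested genes 5 were called higher in ST-HSC and none lower, and 8 agreed at 2-fold, with list medians of 2.12 on day 2 and 3.12 on day 4 on the log2 scale. The median of all genes tested was 0 on both days. Over all genes tested 0.205% were called higher and 0.0514% lower, and 3.74% agreed higher and 5.26% lower. These shares are the background for the counts of every list below. Mpo (ENSMUSG00000009350), myeloperoxidase, had 2109 and 4315 FPKM in ST-HSC and 16.8 and 10.7 FPKM in LT-HSC on days 2 and 4, with 7849 and 8538 FPKM in MP. It was thus 125-fold higher on day 2 and 401-fold higher on day 4, and the groups did not overlap (fitted log2 difference 7.7 ± 0.36 SE, limma adjusted p = 0.000292). With 2 libraries against 2, both ST-HSC values lay above both LT-HSC values in 18.6% of all genes tested and below both in 19.9%.

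Ctsg, the protease cathepsin G, had 395 and 613 FPKM in ST-HSC against 1.5 and 1.49 FPKM in LT-HSC, 264-fold and 410.4-fold higher (7.63 ± 0.34, limma adjusted p = 0.000292). Ms4a3, a membrane protein of granulocyte and monocyte progenitors, had 183 and 313 FPKM in ST-HSC and was listed at 0 in both LT-HSC libraries. Its fitted difference of 7.91 ± 0.37 (limma adjusted p = 0.000292) therefore depends on the added 1. In each of these genes MP stood above ST-HSC: Ctsg was at 2709 and 1889 FPKM and Ms4a3 at 1662 and 1239 FPKM in MP.

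Prtn3, proteinase 3, and Elane, neutrophil elastase, are neighbouring protease genes. Prtn3 had 2874 and 4277 FPKM in ST-HSC and 102 and 165 FPKM in LT-HSC, 28.3-fold and 25.9-fold higher (4.75 ± 0.25, limma adjusted p = 0.00041). Elane had 88.1 and 137 FPKM in ST-HSC and 4.6 and 3.12 FPKM in LT-HSC, 19.2-fold and 43.9-fold higher (4.53 ± 0.34, limma adjusted p = 0.00416). In MP they stood much nearer each other, at 15215 and 13400.2 FPKM for Prtn3 and 7339 and 5551 FPKM for Elane, than in ST-HSC.

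The starts of Prtn3 and Elane lie 6645 bases apart on chromosome 10. The stretch from 150 to 66 bases before each start is shown because both genes moved together and both stretches hold GAGGAA. These letters, which PU.1 recognises, are in capitals. The sequences are from RefSeq on GRCm38.p6, at chr10:79879517-79879601 and chr10:79886162-79886246, plus strand, 5′ to 3′.
Prtn3: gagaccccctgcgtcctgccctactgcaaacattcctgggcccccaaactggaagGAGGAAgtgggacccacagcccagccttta
Elane: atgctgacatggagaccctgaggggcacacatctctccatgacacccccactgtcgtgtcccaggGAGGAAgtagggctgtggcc
The match begins 95 bases before the start of Prtn3 and 85 before that of Elane. On either strand GAGGAA is present in this window in 9.42% of the 27025 genes with a promoter in the RefSeq table, in 9.18% of the 7667 tested genes that could be matched to it, and in 9.86% of the 284 matched genes that were higher in ST-HSC at both days. Of the 24 genes called higher 19 were matched and 4 hold it. Prtn3 and Elane, for which the motif was chosen, are among those 4, so that share is no separate evidence. Of the genes called lower 4 were matched and 1 holds it, and of the 420 matched genes lower at both days 8.57% hold it. A match is a description of letters, not of a bound site. The gene of PU.1 itself, listed as Sfpi1, was at 235 and 514 FPKM in ST-HSC and 167 and 259 FPKM in LT-HSC and did not pass (limma adjusted p = 0.302).

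Other members of the primary granule list did not separate in the same way. Nkg7, a granule membrane protein, had 76.2 and 152 FPKM in ST-HSC and 2.33 and 24.5 FPKM in LT-HSC, with a limma adjusted p of 0.189. Srgn, the proteoglycan that packs granule proteases, had 1520.3 and 989 FPKM in ST-HSC and 2329 and 1684 FPKM in LT-HSC, and Lyz2, lysozyme, had 248 and 36.5 FPKM in ST-HSC and 288 and 146 FPKM in LT-HSC. Neither passed (limma adjusted p = 0.292 and 0.746), and both were chosen after their values were seen. The summed FPKM of the 15 listed genes was 8038 and 11627 in ST-HSC and 2911 and 2413 in LT-HSC, against 41703 and 36271 in MP. Most of the LT-HSC sums was Srgn, at 2329 and 1684 FPKM. In libraries of 25 pooled cells, more cells of a granulocyte type and more such RNA per cell cannot be told apart.

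**Figure D2:**
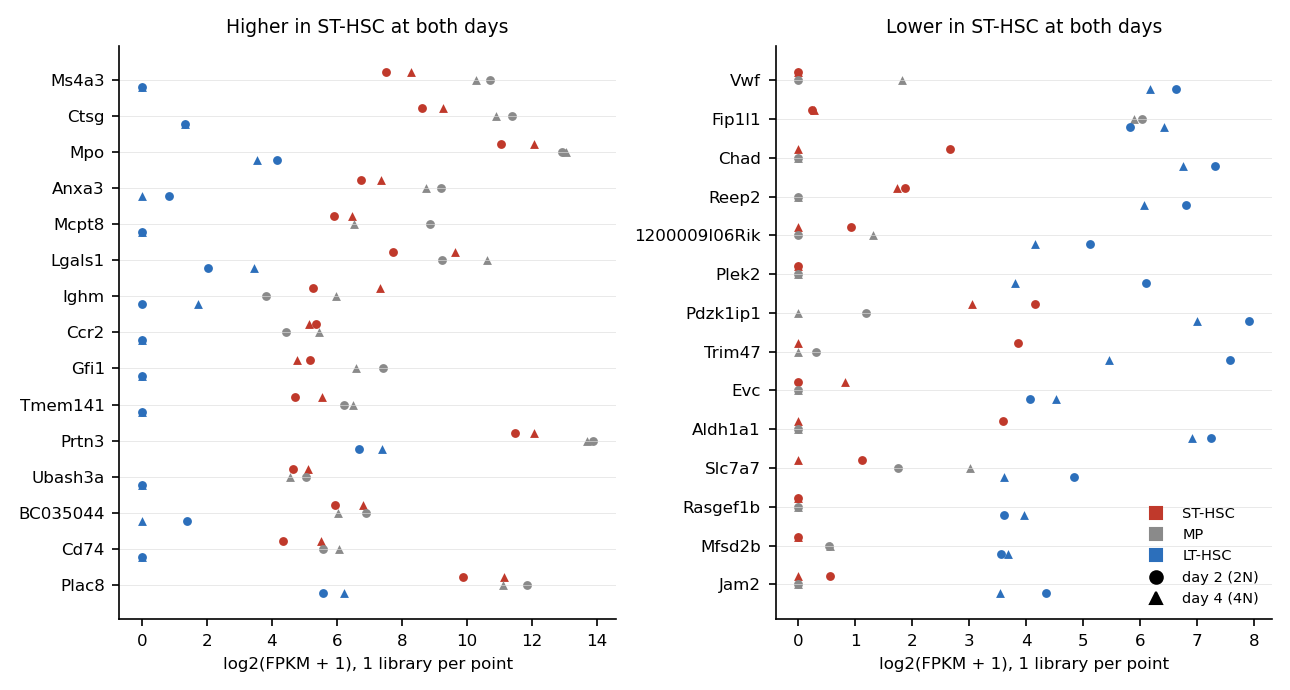
Level of 15 genes clearly higher and 14 clearly lower in ST-HSC at both days, on log2(FPKM + 1) (horizontal axis), with 1 point per N library: ST-HSC red, MP grey, LT-HSC blue, circles for day 2 and triangles for day 4. Of the genes on the left, Mpo, Ctsg and Ms4a3 are highest in MP. Of those on the right, MP lies with ST-HSC for Vwf and Chad and with LT-HSC for Fip1l1.

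The later granule genes followed another pattern. None of 19 tested genes was called, and their median difference was -4.25 on day 2 and 0 on day 4. Camp, the antimicrobial peptide cathelicidin, was listed at 0 in both ST-HSC libraries and was at 1266 and 3.71 FPKM in LT-HSC on days 2 and 4. Ngp, a granule protein of neutrophils, was likewise at 0 in both ST-HSC libraries and at 799 and 1.05 FPKM in LT-HSC. S100a8, a subunit of calprotectin chosen after its values were seen, had 9.92 and 0 FPKM in ST-HSC and 1275 and 0 FPKM in LT-HSC, and without LT-HSC_2N its fitted difference of -3.43 became 0.21. High values of these 3 genes were thus confined, among the 4 libraries, to LT-HSC_2N. The primary granule list summed to 2911 FPKM in LT-HSC_2N and to 2413 FPKM in LT-HSC_4N, of which Srgn alone made up 2329 and 1684 FPKM. The part of these RNAs in the other differences of day 2 was not tested.

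Of 15 tested transcription factors of the myeloid branch, 2 were called higher in ST-HSC and none lower, and 4 agreed higher against 1 lower. Irf8, which drives monocyte and dendritic cell fate, had 40 and 189.6 FPKM in ST-HSC and 1.1 and 1.27 FPKM in LT-HSC (5.34 ± 0.55, limma adjusted p = 0.0151). Gfi1, a repressor needed for neutrophil development and for stem cell function, had 34.7 and 26.2 FPKM in ST-HSC and was listed at 0 in both LT-HSC libraries (4.96 ± 0.47, limma adjusted p = 0.00895). These are the only members of the list that passed. Cebpa, a master factor of granulocyte and monocyte fate, had 15 and 14.1 FPKM in ST-HSC and 0 and 2.76 FPKM in LT-HSC (limma adjusted p = 0.216). Cebpe, which acts in later neutrophil stages, had 1.22 and 0 FPKM in ST-HSC and 9.78 and 0 FPKM in LT-HSC.

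Of 28 tested monocyte, macrophage and dendritic cell genes, 1 was called higher in ST-HSC, 13 agreed higher and none agreed lower, with medians of 1.33 on day 2 and 2.86 on day 4. The shares of all genes tested that agreed were 3.74% higher and 5.26% lower. Ccr2, the receptor that brings monocytes into tissue, had 40.3 and 34 FPKM in ST-HSC and was listed at 0 in LT-HSC (5.25 ± 0.55, limma adjusted p = 0.016). Ctss, cathepsin S of antigen-presenting cells, had 27.3 and 44.7 FPKM in ST-HSC and 1.44 and 0 FPKM in LT-HSC (limma adjusted p = 0.0673). Tyrobp, a signalling adaptor of myeloid receptors, had 102 and 289 FPKM in ST-HSC and 18.5 and 9.52 FPKM in LT-HSC (limma adjusted p = 0.123). Both genes were apart on each day without passing. Ccl9, a chemokine of myeloid cells, had 145 and 289 FPKM in ST-HSC and 5.88 and 29.7 FPKM in LT-HSC, ratios of 24.6 and 9.72 that did not pass (limma adjusted p = 0.0673). Fcgr3, a low-affinity receptor for immunoglobulin G, had 6.94 and 18.3 FPKM in ST-HSC and 3.23 and 4.31 FPKM in LT-HSC (limma adjusted p = 0.313). Csf1r, the receptor of the macrophage growth factor, was apart on day 4 only, with 3.6 and 30.8 FPKM in ST-HSC and 2.07 and 0.0632 FPKM in LT-HSC. Itgam, a defining surface marker of mature myeloid cells, was listed at 0 in both ST-HSC libraries and at 0.891 and 0 FPKM in LT-HSC.

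Of the 10 tested genes of MHC class II, which presents peptides to helper T cells, 1 was called higher and 5 agreed higher, with medians of 1.89 and 1.83. Cd74, the invariant chain that escorts class II molecules, had 19.4 and 44.2 FPKM in ST-HSC and was listed at 0 in LT-HSC (4.92 ± 0.52, limma adjusted p = 0.016). H2-Ab1, a chain of the class II molecule, had 87.4 and 93.6 FPKM in ST-HSC and 29.5 and 14.9 FPKM in LT-HSC (limma adjusted p = 0.125). H2-Eb1 and H2-Aa, further chains of it, had 8.61 and 16.2 FPKM and 14.3 and 50.1 FPKM in ST-HSC, against 0 and 0 FPKM and 0 and 23.2 FPKM in LT-HSC (limma adjusted p = 0.238 and 0.395). These levels were below those of the uncultured cells, where H2-Eb1 had 671 FPKM in ST-HSC and 264 FPKM in LT-HSC. H2-DMa, which loads the peptide and was chosen after its values were seen, was closer, at 226 and 220.1 FPKM in ST-HSC and 183 and 141 FPKM in LT-HSC.

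Basophil and mast cell genes gave 2 calls among 19 tested, both higher. Mcpt8, a basophil protease, had 59 and 87.3 FPKM in ST-HSC and was listed at 0 in LT-HSC (6.19 ± 0.69, limma adjusted p = 0.0204). Ifitm1, an interferon-inducible membrane protein that the list shares with the interferon list, had 628 and 1303 FPKM in ST-HSC and 77.3 and 80.1 FPKM in LT-HSC (3.51 ± 0.33, limma adjusted p = 0.00895). Cpa3, mast cell carboxypeptidase, had 7.51 and 60.6 FPKM in ST-HSC and was listed at 0 in LT-HSC, and did not pass (limma adjusted p = 0.125). Slc18a2, the transporter that loads monoamines into vesicles, went the other way, with 1.18 and 4.44 FPKM in ST-HSC and 32.3 and 13.9 FPKM in LT-HSC (limma adjusted p = 0.228). The Fc receptor chains that define these cells were at or near 0: Fcer1a had 0 and 5.41 FPKM in ST-HSC and Ms4a2 had 0 and 0.532 FPKM, with 0 for both in LT-HSC.

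Of 20 tested genes of the short-term and multipotent progenitor list, 4 were called higher in ST-HSC and none lower, and 9 agreed higher, with medians of 0.58 on day 2 and 2.22 on day 4. Cd48, a surface receptor used to tell multipotent progenitors from LT-HSC, had 95.5 and 221 FPKM in ST-HSC and 8 and 14.5 FPKM in LT-HSC, 11.9-fold and 15.3-fold higher (3.64 ± 0.33, limma adjusted p = 0.00895). It was above MP too, at 55 and 95.6 FPKM. Plac8, a small protein of myeloid and lymphoid progenitors, had 944 and 2250.4 FPKM in ST-HSC and 46.4 and 74.1 FPKM in LT-HSC (4.61 ± 0.43, limma adjusted p = 0.00895).

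Ighm had 37.2 and 160 FPKM in ST-HSC and 0 and 2.3 FPKM in LT-HSC (5.43 ± 0.45, limma adjusted p = 0.00519), and MP had 13.1 and 62.2 FPKM. Emb, the membrane glycoprotein embigin, had 298 and 509 FPKM in ST-HSC and 53.9 and 24.4 FPKM in LT-HSC (3.39 ± 0.45, limma adjusted p = 0.0459). Flt3, the cytokine receptor that marks multipotent progenitors, was at 25.3 and 25.7 FPKM in ST-HSC and 1.6 and 3.39 FPKM in LT-HSC, with 4.13 and 0 FPKM in MP, and did not pass (limma adjusted p = 0.246). Cd53, a tetraspanin of blood cells, had 33.9 and 52.4 FPKM in ST-HSC and 7.15 and 0.793 FPKM in LT-HSC (limma adjusted p = 0.125). For Flt3 and Cd53 both ST-HSC values lay above both LT-HSC values, as in 18.6% of all genes tested. Cd34, the sialomucin whose absence marks uncultured mouse LT-HSC, did not separate the cultures. It had 596 and 442 FPKM in ST-HSC and 487 and 575 FPKM in LT-HSC, whereas the uncultured libraries had 421 FPKM in ST-HSC and 16.1 FPKM in LT-HSC.

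Several called genes belonged to no list. Lgals1, the sugar-binding protein galectin-1, had 209 and 796 FPKM in ST-HSC and 3.06 and 9.94 FPKM in LT-HSC, 68.3-fold and 80.1-fold higher (5.94 ± 0.28, limma adjusted p = 0.000292). Anxa3, a membrane-binding annexin abundant in neutrophils, had 107 and 162 FPKM in ST-HSC and 0.79 and 0 FPKM in LT-HSC (6.63 ± 0.43, limma adjusted p = 0.00164). Ubash3a, a phosphatase-like regulator of T cell receptor signalling, had 24.2 and 33.7 FPKM in ST-HSC and was listed at 0 in LT-HSC (4.89 ± 0.54, limma adjusted p = 0.0199).

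BC035044 and Tmem141 were also called, with fitted differences of 5.68 and 5.12. The remaining calls were outside the naming rule and are named after their values were seen. Hspa5, the chaperone BiP of the endoplasmic reticulum, had 320.3 and 364 FPKM in ST-HSC and 94.7 and 92.1 FPKM in LT-HSC, and its difference of 1.86 ± 0.24 was the smallest among the calls (limma adjusted p = 0.0411). Sema4a, Parp8 and Gm7676 differed by 3.46, 3.25 and 3.54.

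Of 32 tested genes of the LT-HSC surface and signature list, 3 were called lower in ST-HSC and none higher, and 17 agreed lower against 1 higher, with medians of -1.86 on day 2 and -2.07 on day 4. The shares of all genes tested that agreed were 5.26% lower and 3.74% higher. Vwf (ENSMUSG00000001930), von Willebrand factor, which tethers platelets to injured vessel walls and marks platelet-biased LT-HSC, was listed at 0 in both ST-HSC libraries and had 97.7 and 71.1 FPKM in LT-HSC, with 0 and 2.55 FPKM in MP. Its fitted difference was -6.4 ± 0.74 (limma adjusted p = 0.0245). Pdzk1ip1, a small membrane protein typical of LT-HSC, had 16.9 and 7.27 FPKM in ST-HSC and 241 and 127 FPKM in LT-HSC (-3.85 ± 0.45, limma adjusted p = 0.0256). Cd9, a tetraspanin of LT-HSC and megakaryocytes, had 81.2 and 70.7 FPKM in ST-HSC and 372 and 420.2 FPKM in LT-HSC (-2.37 ± 0.32, limma adjusted p = 0.0475). In these 3 genes both ST-HSC values lay below both LT-HSC values, as in 19.9% of all genes tested.

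Slamf1, the CD150 antigen by which LT-HSC are sorted, was listed at 0 in both ST-HSC libraries and had 4.13 and 19.1 FPKM in LT-HSC (limma adjusted p = 0.226). Esam, an adhesion molecule shared by stem cells and endothelium, had 16.9 and 0 FPKM in ST-HSC and 133 and 136 FPKM in LT-HSC (limma adjusted p = 0.147). Jam2, a junctional adhesion molecule, had 0.482 and 0 FPKM in ST-HSC and 19.4 and 10.7 FPKM in LT-HSC (limma adjusted p = 0.125). Other LT-HSC markers did not keep one direction. Procr, the protein C receptor used to sort LT-HSC, had 27.3 and 0 FPKM in ST-HSC and 12.4 and 9.22 FPKM in LT-HSC, and Fgd5, a marker of LT-HSC, had 17.4 and 1.43 FPKM in ST-HSC and 9.54 and 5.53 FPKM in LT-HSC. Both were higher in ST-HSC on day 2 and lower on day 4.

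Hlf, a transcription factor of stem cells, had 10.3 and 1.46 FPKM in ST-HSC and 21.7 and 7.58 FPKM in LT-HSC (limma adjusted p = 0.455), lower on each day with overlapping ranges over the 2 days. Mllt3, which sustains stem cell self-renewal, had 3.6 and 15.8 FPKM in ST-HSC and 15.4 and 32.2 FPKM in LT-HSC (limma adjusted p = 0.722). Ly6a, the Sca-1 antigen of primitive mouse blood cells, had 20.2 and 14.3 FPKM in ST-HSC and 76.8 and 23.3 FPKM in LT-HSC (limma adjusted p = 0.464) and was listed at 0 in MP. For Ly6a both ST-HSC values lay below both LT-HSC values, as in 19.9% of all genes tested.

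Megakaryocyte and platelet genes gave 2 lower calls among 21 tested, which were Vwf and Cd9, and 12 that agreed lower, with medians of -1.76 and -2.44. No gene of this list agreed higher. Among all genes tested 5.26% agreed lower and 3.74% higher. Gp9, a subunit of the platelet receptor for von Willebrand factor, had 11.2 and 5.22 FPKM in ST-HSC and 118 and 115 FPKM in LT-HSC, ratios of LT-HSC to ST-HSC of 10.5 and 22 (limma adjusted p = 0.0673). Itga2b, the platelet integrin chain CD41, had 11.5 and 33.4 FPKM in ST-HSC and 81.7 and 181 FPKM in LT-HSC (limma adjusted p = 0.278). Neither passed, and in each both ST-HSC values lay below both LT-HSC values, as in 19.9% of all genes. Rab27b, which acts in platelet granule secretion, had 2.3 and 2.06 FPKM in ST-HSC and 16.1 and 33.3 FPKM in LT-HSC (limma adjusted p = 0.238), and Mmrn1, the platelet protein multimerin, had 4.63 and 0 FPKM in ST-HSC and 57.8 and 13.4 FPKM in LT-HSC (limma adjusted p = 0.157). Pf4, platelet factor 4, was apart on day 4 alone, with 8.72 and 5.59 FPKM in ST-HSC and 5.43 and 121 FPKM in LT-HSC.

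**Figure D3:**
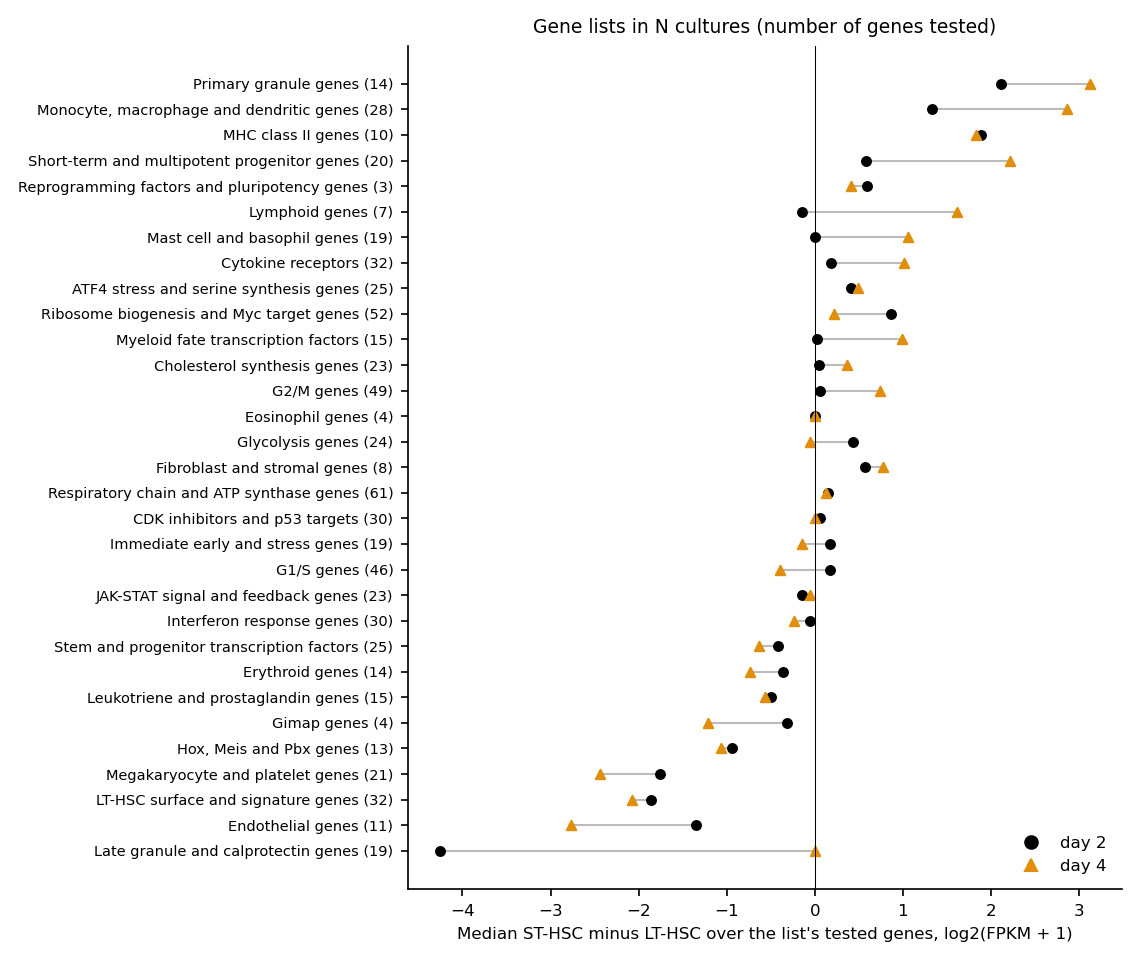
Median difference between ST-HSC and LT-HSC over the tested genes of each list, on log2(FPKM + 1), on day 2 (black circles) and day 4 (orange triangles) of N culture. Primary granule genes lie at 2.12 and 3.12 and megakaryocyte genes at -1.76 and -2.44, while late granule genes lie at -4.25 on day 2 and at 0 on day 4.

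The endothelial list shares Vwf, Esam, Tie1, Tek, Robo4 and Eng with the LT-HSC list; 1 of 11 tested genes was called lower and 6 agreed lower. Eng, the coreceptor endoglin, had 62.3 and 22.9 FPKM in ST-HSC and 160.2 and 162 FPKM in LT-HSC (limma adjusted p = 0.139). Emcn, endomucin, was listed at 0 in both ST-HSC libraries and had 6.32 and 8.63 FPKM in LT-HSC (limma adjusted p = 0.219). Cdh5 and Kdr, the markers that define endothelium, were listed at 0 in all 4 libraries.

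Fip1l1 (ENSMUSG00000029227), a subunit of the complex that cleaves and polyadenylates messenger RNA, had 0.189 and 0.215 FPKM in ST-HSC and 55.8 and 84.3 FPKM in LT-HSC, a 296-fold and 393-fold lower level (-5.86 ± 0.45, limma adjusted p = 0.00416). MP had 64.5 and 58.6 FPKM, the 3 uncultured libraries 82.8 to 87.2 FPKM, and ST-HSC in D cultures 65.7 and 62.4 FPKM. Low Fip1l1 was thus found in both ST-HSC N libraries, and of the other blood libraries in LT-HSC_2D alone was it below 10 FPKM, at 1.96. Chad, the matrix protein chondroadherin, had 5.36 and 0 FPKM in ST-HSC and 159 and 107 FPKM in LT-HSC (-5.7 ± 0.76, limma adjusted p = 0.0475). Reep2, which shapes endoplasmic reticulum membranes, had 2.65 and 2.34 FPKM in ST-HSC and 111 and 66 FPKM in LT-HSC (-4.64 ± 0.58, limma adjusted p = 0.0368). Both were listed at 0 in MP.

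Further genes lower at both days did not pass the test. Aldh1a1, an enzyme that makes retinoic acid, had 11.1 and 0 FPKM in ST-HSC and 151 and 119 FPKM in LT-HSC (limma adjusted p = 0.104). Plek2, a pleckstrin relative that binds membrane phosphoinositides, was listed at 0 in ST-HSC and had 68 and 12.9 FPKM in LT-HSC (limma adjusted p = 0.0952). Mfsd2b, the sphingosine-1-phosphate exporter of red cells and platelets, was listed at 0 in ST-HSC and had 10.8 and 11.9 FPKM in LT-HSC (limma adjusted p = 0.125). Trim47, Evc, Slc7a7, Rasgef1b and 1200009I06Rik were also among the genes of largest agreement, with limma adjusted p between 0.122 and 0.152.

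Among stem and progenitor transcription factors 1 of 25 tested was called, Gfi1, and 7 agreed lower against 1 higher, with medians of -0.42 and -0.63. Mecom, which LT-HSC need for their maintenance, had 4.84 and 1.38 FPKM in ST-HSC and 28.8 and 14.7 FPKM in LT-HSC (limma adjusted p = 0.228). Gata2, a stem cell and mast cell factor, had 21.2 and 23.6 FPKM in ST-HSC and 70.3 and 64.8 FPKM in LT-HSC (limma adjusted p = 0.287). Zfpm1, the GATA partner FOG-1, had 3.29 and 1.2 FPKM in ST-HSC and 11.3 and 8.85 FPKM in LT-HSC (limma adjusted p = 0.334). None of the 3 passed, and in each both ST-HSC values lay below both LT-HSC values, as they did in 19.9% of all genes tested. Core factors of blood formation, chosen after their values were seen, lay close together. Lmo2 had 415 and 309 FPKM in ST-HSC and 439 and 480.5 FPKM in LT-HSC, Lyl1 had 64.9 and 31.5 FPKM in ST-HSC and 66.3 and 33.3 FPKM in LT-HSC, and Runx1 had 16.5 and 19.6 FPKM in ST-HSC and 26.9 and 21.9 FPKM in LT-HSC.

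Homeobox genes of the Hox, Meis and Pbx families gave no call among 13 tested. Of them 4 agreed lower, against 5.26% of all genes tested, and none higher, against 3.74%. The list medians were -0.94 and -1.07. Hoxa10, which keeps progenitors immature, had 9.34 and 3.11 FPKM in ST-HSC and 23.1 and 23.6 FPKM in LT-HSC (limma adjusted p = 0.32). Meis1, a Hox cofactor, had 41.6 and 25.2 FPKM in ST-HSC and 89.3 and 68.4 FPKM in LT-HSC (limma adjusted p = 0.333). Neither passed, and the groups were apart in both, the same order as in 19.9% of all genes tested. Hoxb5, a marker of mouse LT-HSC, was listed at 0 in both ST-HSC libraries and at 6.6 and 0 FPKM in LT-HSC, and Hoxb2 was listed at 0 in ST-HSC and had 22.5 and 4.04 FPKM in LT-HSC (limma adjusted p = 0.632 and 0.225).

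Erythroid genes gave no call among 14 tested, with 1 that agreed higher and 3 lower and medians of -0.36 and -0.73. Among all genes tested 3.74% agreed higher and 5.26% lower. The list summed to 1120.4 and 922 FPKM in ST-HSC and to 2347 and 2827 FPKM in LT-HSC. Its highest gene was Car2, carbonic anhydrase II, which red cells share with other tissues, at 351 and 147 FPKM in ST-HSC and 1434 and 1554 FPKM in LT-HSC. Of the globin chains, Hba-a1 was listed at 0 in all 4 libraries and Hbb-b1 in all but LT-HSC_2N, which had 5.58 FPKM. Hbb-b2 had 31.2 and 1.52 FPKM in ST-HSC and 65.7 and 8.86 FPKM in LT-HSC (limma adjusted p = 0.561). Car2, like Egfl7 and Vim above, is named after its values were seen.

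Among 32 tested cytokine receptors Ccr2 was the only call, and 7 agreed higher against 1 lower. The shares of all genes tested that agreed were 3.74% higher and 5.26% lower. Il2rg, the common gamma chain, had 71.2 and 59.1 FPKM in ST-HSC and 3.71 and 12.5 FPKM in LT-HSC (limma adjusted p = 0.0879). Csf2rb, the shared chain of the receptors for interleukin 3 and GM-CSF, and Il1r1, the interleukin 1 receptor, were chosen after their values were seen. Csf2rb had 35.9 and 65.1 FPKM in ST-HSC and 14.8 and 11.3 FPKM in LT-HSC, and Il1r1 had 8.39 and 9.06 FPKM in ST-HSC and was listed at 0 in LT-HSC. Kit, the stem cell factor receptor, was at 16.7 and 7.68 FPKM in ST-HSC and 26.9 and 14.6 FPKM in LT-HSC (limma adjusted p = 0.58).

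Lists of growth and metabolism had no call in either direction. With 0.205% of all genes tested called higher and 0.0514% lower, few or no calls are likely in any list of these sizes. The medians on days 2 and 4 were 0.17 and -0.4 for 46 G1/S genes, 0.06 and 0.74 for 49 G2/M genes, 0.44 and -0.05 for 24 glycolysis genes and 0.15 and 0.13 for 61 genes of the respiratory chain. Ribosome biogenesis genes had medians of 0.87 on day 2 and 0.22 on day 4 over 52 tested. Myc, which drives that list and is one of the inducible factors, had 284 and 205 FPKM in ST-HSC and 188 and 291 FPKM in LT-HSC. It was higher in ST-HSC on day 2 and lower on day 4 (limma adjusted p = 0.989), and its fitted sign turned with quantile normalisation. Interferon response genes had 1 call among 30, Ifitm1, and medians of -0.05 and -0.24. None of these medians is a test.

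The lymphoid list gave 1 call among 7 tested, which was Ighm again, with medians of -0.15 on day 2 and 1.61 on day 4. No call was made among the 23 JAK-STAT genes, 19 immediate early genes, 30 CDK inhibitors and p53 targets, 23 cholesterol synthesis genes, 25 ATF4 and serine synthesis genes, 15 leukotriene and prostaglandin genes, 8 stromal genes, 4 eosinophil genes, 4 Gimap genes and 3 reprogramming and pluripotency genes tested. Since 0.205% of all genes tested were called higher and 0.0514% lower, the lack of calls in these 10 lists is near the background. Their medians ran from -0.5 to 0.59 on day 2 and from -1.21 to 0.77 on day 4. Col1a1, the chain that defines stromal cells, was listed at 0.718 and 0 FPKM in ST-HSC and at 0.425 and 0 FPKM in LT-HSC.

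MP levels took no part in the 2-fold rule, though they entered the mean FPKM that decided which genes were tested. They lay near ST-HSC in both directions. Over the 437 genes higher at both days, the median level on log2(FPKM + 1), averaged over days, was 3.82 in ST-HSC, 3.72 in MP and 1.6 in LT-HSC. Over the 615 lower genes it was 1.7 in ST-HSC, 1.79 in MP and 3.81 in LT-HSC. Over all genes tested the medians were 3.9 in ST-HSC, 3.86 in MP and 3.93 in LT-HSC. Apart from that filter the ST-HSC and LT-HSC values chose the genes, so only the place of MP between them is new here.

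The uncultured pair, which shares no library with the cultures, held differences of these genes in both directions. Of the 437 higher genes, 31.1% were also 2-fold higher in uncultured ST-HSC, where 20.1% of all genes tested were, and 25.2% were 2-fold lower, where 19.6% of all genes were. Of the 615 lower genes, 29.1% were lower and 20.7% higher in uncultured ST-HSC. The median difference in the uncultured pair was 0 for both sets. Vwf kept its direction, at 0.112 FPKM in uncultured ST-HSC and 166 FPKM in LT-HSC_0. Mpo did not, at 765 FPKM in uncultured ST-HSC and 7525 FPKM in LT-HSC_0, nor did Prtn3, at 797 FPKM in uncultured ST-HSC and 16683 FPKM in LT-HSC_0.

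The D cultures of the same cell types, which share no library with the N cultures, also held both directions. Of the 437 higher genes, 13.5% were 2-fold higher in ST-HSC in both D pairs, against 6.34% of all genes tested, and 3.43% were lower in both, against 2.8% of all. Of the 615 lower genes, 6.99% were lower in both D pairs, against 2.8% of all genes, and 13.5% were higher in both, against 6.34% of all. In ST-HSC, Mpo and Ms4a3 were far lower in D than in N. Mpo had 45.1 and 8.45 FPKM in ST-HSC and 9.67 and 0.387 FPKM in LT-HSC on days 2 and 4 of D culture. Ms4a3 had 4.17 and 0.873 FPKM in ST-HSC and was listed at 0 in LT-HSC. Not every higher gene fell: Il2rg had 83 and 88.9 FPKM in ST-HSC in D, against 71.2 and 59.1 FPKM in N. Vwf was listed at 0 in all 4 D libraries. Cd9 was turned round, with 457 and 142 FPKM in ST-HSC and 249 and 88.4 FPKM in LT-HSC.

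**Figure D4:**
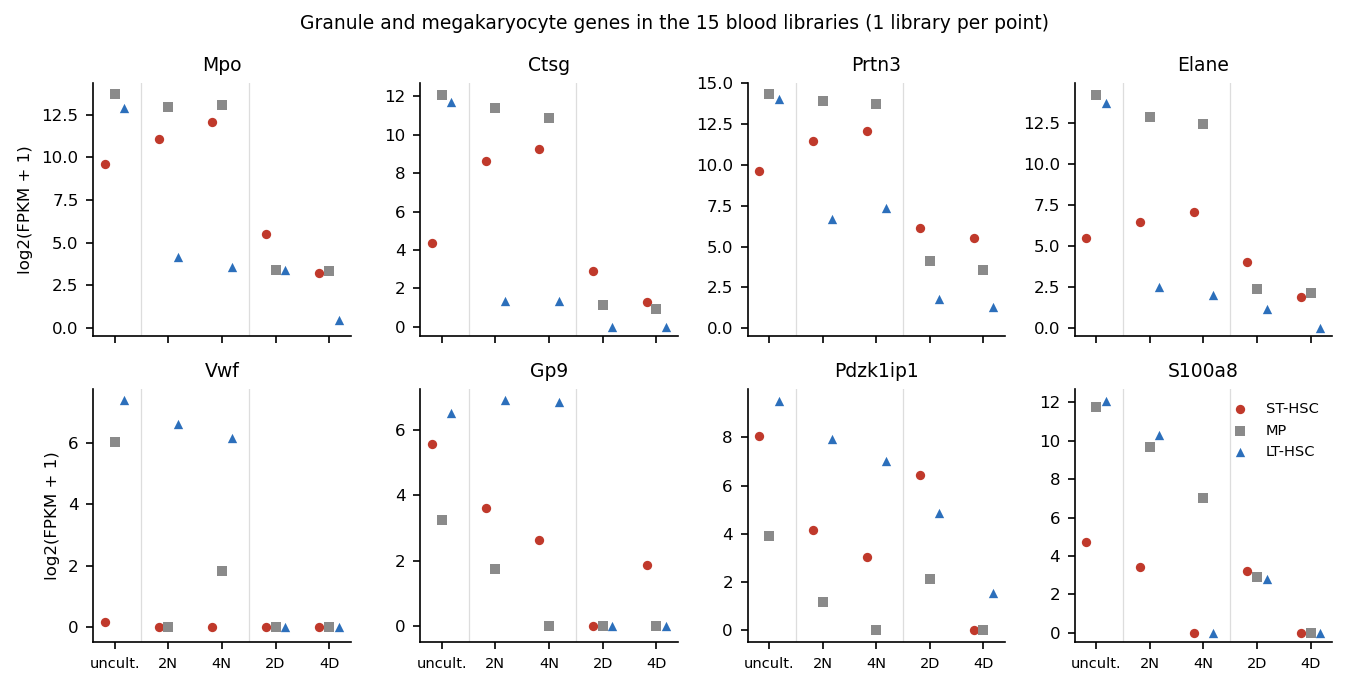
Level on log2(FPKM + 1) of 8 genes in the 15 blood libraries, by condition (uncultured, N and D cultures of 2 and 4 days), with ST-HSC as red circles, MP as grey squares and LT-HSC as blue triangles, 1 library per point. In N cultures Mpo, Ctsg, Prtn3 and Elane are ordered MP, ST-HSC, LT-HSC from high to low, whereas in uncultured cells the library labelled LT-HSC_0 lies near MP. S100a8 is high in LT-HSC_2N and listed at 0 in LT-HSC_4N.

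Whether the difference between ST-HSC and LT-HSC itself differed between N and D cultures was tested over the 15 blood libraries. With limma 56 of 12453 genes (0.45%) passed, 9 more positive and 47 more negative in N, and 1827 had an unadjusted p under 0.05. Of the 24 genes called higher 6 were among them, and of the 6 called lower 2, Vwf and Fip1l1. The same N libraries enter both tests, so this overlap is no separate evidence. Ctsg differed by 5.53 ± 0.66 more in N than in D (limma adjusted p = 0.0209) and Vwf by -6.4 ± 0.95 (limma adjusted p = 0.0436). Without any of the 4 N libraries, left out 1 at a time, no gene passed.

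Against the uncultured pair 158 of 12453 genes (1.27%) passed, 101 more positive and 57 more negative in N, and 2097 had an unadjusted p under 0.05. The count was 15 without ST-HSC_2N, 12 without ST-HSC_4N, 34 without LT-HSC_2N and 30 without LT-HSC_4N. This test assumes that the single uncultured libraries vary like the cultured ones, and it uses the library labelled LT-HSC_0. Mpo differed by 11 ± 1.06 more in N (limma adjusted p = 0.00383) and Elane by 12.74 ± 0.82 (limma adjusted p = 0.000294), with 44.7 FPKM of Elane in uncultured ST-HSC and 13554 FPKM in LT-HSC_0. No lower call, Vwf included, was among these genes (Vwf: 0.83 ± 1.17, limma adjusted p = 0.797). No value without LT-HSC_0 can be given, since it is the single uncultured LT-HSC library.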

How the data were processed

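RNA-seq had been made from 25 cells per blood library, per the labels' protocols. The authors deposited 1 table of FPKM values; TopHat, Cufflinks and genome build mm9 are named in the submitters' processing notes, without versions. The table has no unit in its header, and FPKM was read from the values. Its 36818 entries carry 36655 symbols; 158 symbols occur more than once and were added up. Values above 0 in at least 1 library were found for 17955 symbols. Depth cannot be recovered, so no interval or detection limit that needs it is given.

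Values were log2(FPKM + 1), so fold changes of low genes are understated. The test was limma 3.58.1 (R 4.3.3), two-sided, with empirical Bayes moderation using both its trend and its robust option, on genes averaging FPKM 1 or more. P-values were adjusted by Benjamini-Hochberg over all genes tested, with a threshold of 0.05. The 6 N libraries were fitted with terms for cell type and for day, with 2 residual degrees of freedom. The differences between culture classes were fitted over 15 blood libraries with cell type within class and condition, leaving 4. Both fits were tested on simulated data with known shifts: they found most of the largest shifts and few of the smallest, and made some false calls. They take single libraries of different days as replicates, with the remaining spread pooled over cell types.

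The genes, the 31 gene lists and the tests were chosen with earlier results of these data known. Named genes were the 15 of largest agreement in each direction among genes reaching FPKM 10, the calls (all if at most 20 in a direction, otherwise the 10 largest), up to 6 members of each list, the 4 factors, marker genes, and the 5 largest each way in the tests between classes. Some genes that this rule names are left out of the text. Of 826 list symbols 13 were matched by Ensembl ID and 1 was not found. Alternatives covered the added value (0.1 or 10), the filter, scaling, the variance model, the libraries fitted and each library left out. Tables and figures used Python 3.11.15, pandas 2.3.3, numpy 2.4.6 and matplotlib 3.10.9.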

Additional observations from a re-analysis of the deposited data

Results flagged for a closer look

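These genes are given because the difference between ST-HSC and LT-HSC in N cultures itself differed from that in another class in the limma test over the 15 blood libraries; they are the 5 largest each way. Values are differences of log2 differences, N minus the other class, and no cause was tested.

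Against D cultures, Reg3g (8.74), a secreted lectin, was listed at 0 in all N libraries and at 358 and 509.7 FPKM in LT-HSC D cultures alone, so its value comes from D. Anxa3 (6.39), Ms4a3 (6.27) and Ctsg (5.53) were higher in ST-HSC in N. Bcat1 (6.02), an enzyme that breaks down branched-chain amino acids, had 31.6 and 26.5 FPKM in ST-HSC and 0.409 and 4.59 FPKM in LT-HSC in N, and 2.01 and 19.5 FPKM in ST-HSC and 31.7 and 69.6 FPKM in LT-HSC in D. More negative in N were Fip1l1 (-8.31), Rgs1 (-7.66), Hbb-b2 (-7.52), Col18a1 (-7.37) and Pglyrp1 (-7.02). Pglyrp1, a granule protein, differed little in N, at 110.3 and 52.3 FPKM in ST-HSC and 215 and 44.5 FPKM in LT-HSC, and was at 171 and 58.1 FPKM in ST-HSC and listed at 0 in LT-HSC in D.

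Against uncultured cells the positive values were those of Ms4a3 (16.37), Ctsg (14.98), Anxa3 (12.85), Elane (12.74) and Mpo (11), all of which the library labelled LT-HSC_0 carried at 325 FPKM or more. The negative values were those of Phldb1 (-7.45), BC024814 (-7.08), 1700011J10Rik (-6.63), Gbx2 (-6.62) and Ttc39a (-6.49). The last 4 of these were listed at 0 in LT-HSC_0 and Phldb1 at 1.34 FPKM, against 9.2 to 93 FPKM in uncultured ST-HSC.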

How the results depend on the processing

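Of the count of 30 calls in N cultures, other settings gave 19 (added value of 10), 10 (no filter on low values), 55 (mean FPKM of at least 5), 0 (neither trend nor robust; 1256 at an unadjusted p under 0.05), 0 (robust without trend, chosen after seeing the data; 1221 unadjusted), 85 (the 4 ST-HSC and LT-HSC libraries alone) and 18 (all 15 blood libraries); 21 to 31 remained close to it with an added value of 0.1, other scalings or trend without robust. Irf8, Gfi1, Ccr2, Cd74 and Mcpt8 were among the calls lost both with an added value of 10 and with no filter. Ms4a3, Ctsg, Mpo, Lgals1 and Prtn3 passed under both. Leaving out 1 library gave 0 to 24. In every one of these settings the 30 genes kept their direction. The variance options cannot change it, and all 30 differed the same way on both days, so this is little further support. No paired analysis by replicate was possible because the labels carry no replicate numbers; day served as the replicate block, and the fit without this block called 40 genes, 27 of them shared. Genes agreeing at both days, 1052 in all, were 273 with an added value of 10 and 298 at 4-fold, and 704 to 1372 otherwise.

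The 56 calls of N against D became 17 with an added value of 0.1, 1 without filter, 102 at a mean FPKM of 5 and 1 with neither trend nor robust, and 0 without any 1 of the 4 N libraries. The 158 calls of N against uncultured became 349, 400 and 95 with an added value of 0.1, without filter and with neither trend nor robust, and 12 to 34 without 1 library. Of the named genes, none that was called changed sign. Among the others, Fgd5 turned to 0.02 with an added value of 10 and Myc to -0.01 with quantile normalisation. With 1 library left out, the sign also turned in others, with log2 differences of -7.08 to 0.21 for S100a8, -0.17 to 1.8 for Klf4, -0.79 to 0.89 for Myc, -3.44 to 1.16 for Procr, -3.19 to 0.37 for Mllt3, -1.6 to 0.98 for Fgd5, -0.68 to 0.6 for Cd34, -1.04 to 0.12 for Itgam, -0.21 to 0.83 for Ms4a2, -3.83 to 0.21 for Pf4, -0.56 to 1.87 for Lck, -0.85 to 0.13 for Pglyrp1, -1.28 to 0.22 for BC024814, -0.8 to 0.09 for Lmo2, -0.14 to 0.04 for Lyl1 and -2.9 to 0.71 for Lyz2. Apart from settings that fit fewer libraries or test other genes, the cause was not tested. With 1 library per condition and unknown depth, low and zero values limit every difference near FPKM 1.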
